A study of Sus scrofa with 6 samples.

Results

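C3, C5 and CFB, which are soluble components of the complement system, and CD46, CD55 and CD59, which are its regulators on the cell membrane, were followed in femoral arteries of pigs (Sus scrofa), excised where a puncture had been closed. Every array probe whose RefSeq transcript belongs to one of these genes was taken, which gave 12 probes for 6 genes, out of 43603 probes and 2384 named genes. Closure was by TAG, a vascular glue, in 3 samples and by Exoseal, a commercial closure device, in the other 3, and all 6 carry a left puncture in the labels. The RefSeq transcripts are NM_214009 for C3, NM_001001646 for C5, NM_001101824 for CFB, NM_213888 for CD46, NM_213815 for CD55 and NM_214170 for CD59. No sample without a closure product was analysed here, and breed, age and the time after closure are not given in the sources used here. The labels do not tie samples to animals, so each p-value is set against the spread between these samples, some of which may be technical.

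Complement is a cascade of plasma proteins that marks surfaces for removal and can open pores in membranes. Its routes converge on convertases that cleave C3, CFB supplies the protease of the alternative pathway convertase, and cleavage of C5 starts the pore and releases a chemoattractant fragment. Cells of the vessel wall carry CD46, a cofactor for the cleavage of deposited C3 fragments, CD55, which speeds the decay of convertases, and CD59, which blocks the last step of pore assembly. Most plasma C3 comes from the liver, and macrophages, fibroblasts and endothelial cells also make complement proteins locally.

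The arrays differed in brightness, and this touches every value given here. The 75th percentile of the processed signal was 19.3 to 36.4 intensity units on TAG arrays and 61.0 to 151 on Exoseal arrays, and the share of probes well above background was 34.7% to 41.2% in TAG against 60.6% to 70.8% in Exoseal. Levels are therefore given as log2 of the processed signal minus the 75th percentile of the same array, called the scaled log2 level. Exoseal replicate 1 is Exoseal by its title and source name but TAG by its treatment field. By scan time in the file headers it belongs with the 3 TAG arrays, a batch called slide 1 here, and Exoseal replicates 2 and 3 form slide 2. No slide identifier was read. Results that rest on Exoseal replicate 1 are therefore given with and without it. In every result without it, all TAG arrays are of slide 1 and all Exoseal arrays of slide 2. Closure product and slide cannot be told apart there. In whole arteries, fewer cells of a type and less RNA per cell cannot be told apart. The arteries carried smooth muscle transcripts, since all 4 matched smooth muscle markers were well above background on all 6 arrays, among them ACTA2 (smooth muscle actin) and DES (desmin).

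C3 was higher in TAG after scaling, a call that held in 7 of 19 alternatives in limma. CD46 was well above background on the Exoseal arrays only. CFB, C5 and CD55 did not pass the test, and CD59 was too dim to be tested. The difference for C3 was 2.05 ± 0.47 (SE) on the log2 scale, or 4.14-fold (limma adjusted p = 0.0326, n = 3 arrays per group). With its TAG values raised to the dimmest signal well above background on each TAG array, CD46 was 1.14-fold lower in TAG. Its fitted difference was -2.27 ± 0.44 (limma adjusted p = 0.0240), but CD46 entered the test only through the group where it was high, so this call is given as a description. By the brightest probe of each gene, 5 of the 6 members were well above background on at least 3 of 6 arrays and were tested, 1 of them called higher (C3) and 1 called lower (CD46, by values under the detection limit). Among all 20857 features tested, 10.3% were called (6.59% higher in TAG and 3.67% lower), and among named genes 8.61% were called. The groups did not overlap for 2 of the 5 tested members, C3 and CD46, against 35.7% of all features tested. For CD46 this rests on TAG values under the detection limit and is a description. Its level on Exoseal replicate 3, -1.61, lay under the dimmest signal well above background on TAG replicates 2 and 3 (-1.25 and -1.07). At probe level 3 of the 9 tested member probes were called, against 10.8% of all probes. CFB (1.37 ± 0.62), C5 (-0.29 ± 1.00) and CD55 (-1.40 ± 0.83) did not pass, and CD59 was well above background on 0 arrays.

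**Figure D1:**
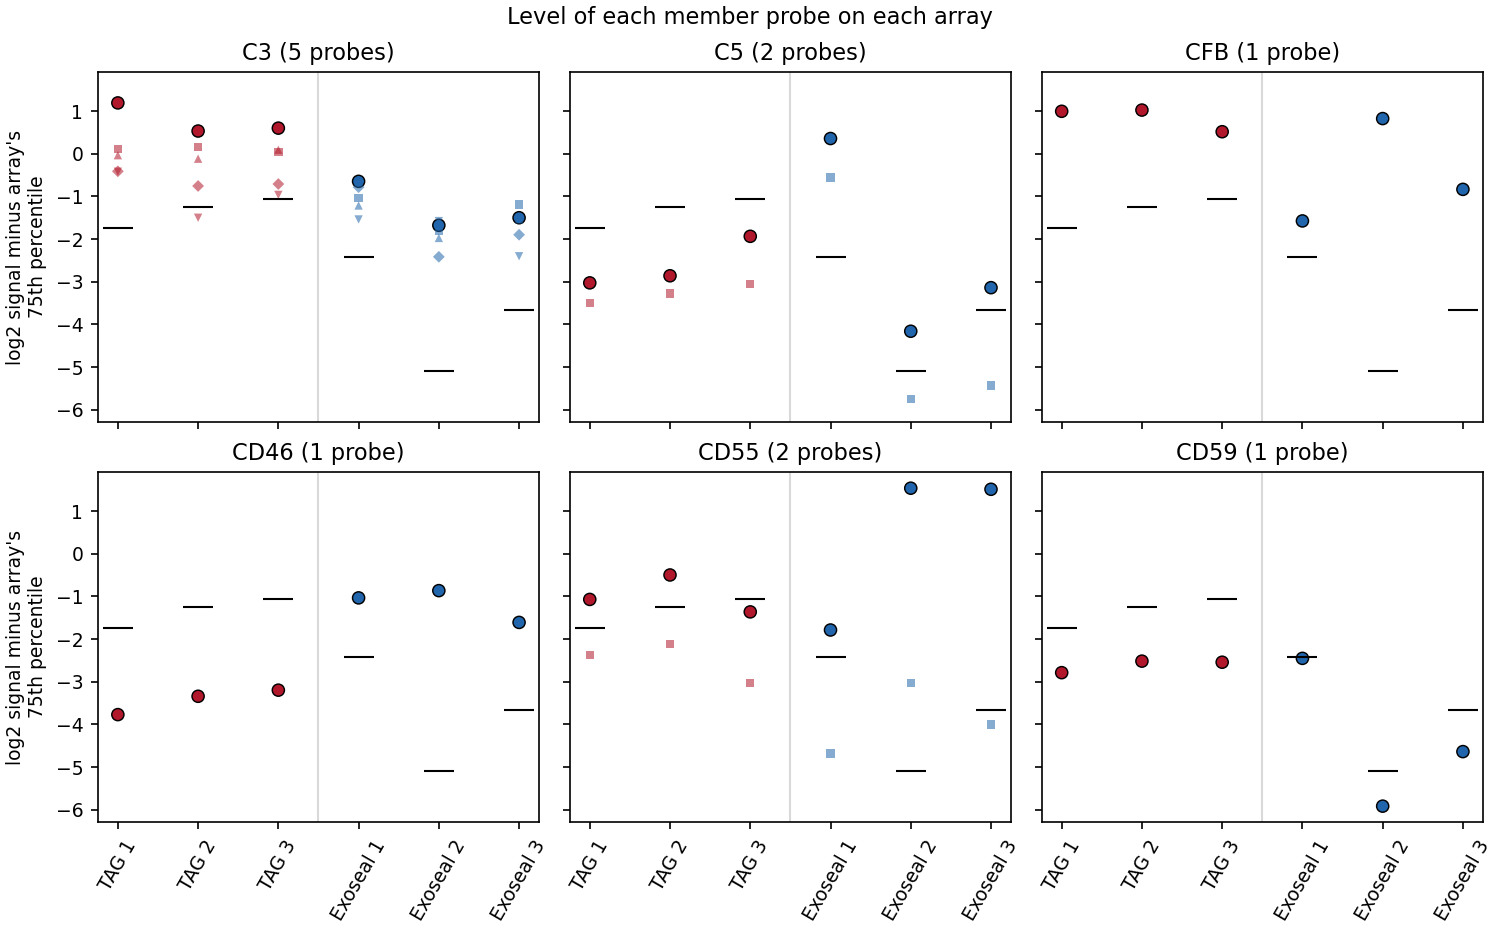
Scaled log2 level (log2 processed signal minus the 75th percentile of the array) of all 12 member probes on each of the 6 arrays, TAG in red and Exoseal in blue. The large outlined circle is the gene's brightest probe, smaller markers are its other probes by shape, and the black dash is the dimmest signal of any probe well above background on that array. All C3 probes sat higher on the TAG arrays than on the Exoseal arrays, CD46 sat under the dash on the 3 TAG arrays only, and C5, CFB and CD55 spread widely over the 3 Exoseal arrays.

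C3 was measured by 5 probes, and 4 of them were well above background on all 6 arrays. The brightest, A_72_P745528, had scaled log2 levels of 1.19, 0.53 and 0.60 on TAG replicates 1 to 3 and -0.65, -1.68 and -1.50 on Exoseal replicates 1 to 3. The groups did not overlap, and the Exoseal array nearest to the TAG arrays was replicate 1. The means were 0.77 ± 0.36 (SD, n = 3) in TAG and -1.28 ± 0.55 (SD, n = 3) in Exoseal. The processed signal of this probe was 8.09 to 9.77 times its scanner-reported error on every array.

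The other C3 probes pointed the same way with smaller differences. Probe A_72_P742730 had scaled log2 levels of 0.12, 0.16 and 0.04 in TAG and -1.03, -1.80 and -1.19 in Exoseal, a difference of 1.45 ± 0.42 (adjusted p = 0.0567 in limma over all probes). Probe A_72_P737664 had -0.04, -0.12 and 0.09 in TAG and -1.21, -1.98 and -1.54 in Exoseal, a difference of 1.56 ± 0.42 (adjusted p = 0.0463 in limma over all probes). For both of these probes each TAG array lay over every Exoseal array by more than the spread within either group.

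The remaining C3 probes had differences that did not pass. Probe A_72_P443993 differed by 1.07 ± 0.51, from -0.76 to -0.41 in TAG and from -2.42 to -0.78 in Exoseal. Probe A_72_P165601 differed by 0.88 ± 0.48, from -1.50 to -0.42 in TAG and from -2.40 to -1.54 in Exoseal, and was well above background on 1 of 3 TAG arrays. On these probes Exoseal replicate 1, or Exoseal replicates 1 and 2, came within a small distance of the lowest TAG array. In all, 2 of 5 C3 probes were called higher in TAG, against 7.06% of all 22720 probes tested. The groups did not overlap for 5 of 5 C3 probes, against 20.2% of all probes tested with every TAG array higher. These probes read the same transcript on the same arrays and are not independent.

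How far probes of 1 gene differ on these arrays can be read from other genes with several probes. Among 369 genes with at least 3 tested probes, the tested probes had 1 sign of difference for 32.8% of genes, C3 among them. The C3 probes spanned 1.17 log2 units between the smallest and the largest difference, and 77.8% of those genes spanned more, with a median of 1.86. Pearson's r between pairs of C3 probes over the 6 arrays ran from 0.64 to 0.99 with a median of 0.88, and such pairs share their libraries and the scaling. The mean of all C3 probes differed by 1.40 and did not pass.

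The size of the C3 difference rests on the scaling between arrays. As deposited, the processed signal of A_72_P745528 was 83.0, 37.2 and 29.2 intensity units on TAG replicates 1 to 3 and 43.6, 47.1 and 21.5 on Exoseal replicates 1 to 3. These unscaled values overlap, and their log2 difference was 0.34, while the median over all features without scaling was -1.67. The brightest C3 probe was thus about as bright in both groups, while most features were dimmer in TAG. The 4 other C3 probes had unscaled log2 differences from -0.83 to -0.15. The scaled difference was 1.42 within slide 1, against Exoseal replicate 1 alone, and 1.59 with median scaling, and neither passed. Without Exoseal replicate 1 it was 2.36 and passed, but there closure product and slide cannot be told apart. Leaving out any other single array gave 1.84 to 2.17 for C3 and 0 features past the threshold in limma (4081 to 5689 at an unadjusted p under 0.05).

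**Figure D2:**
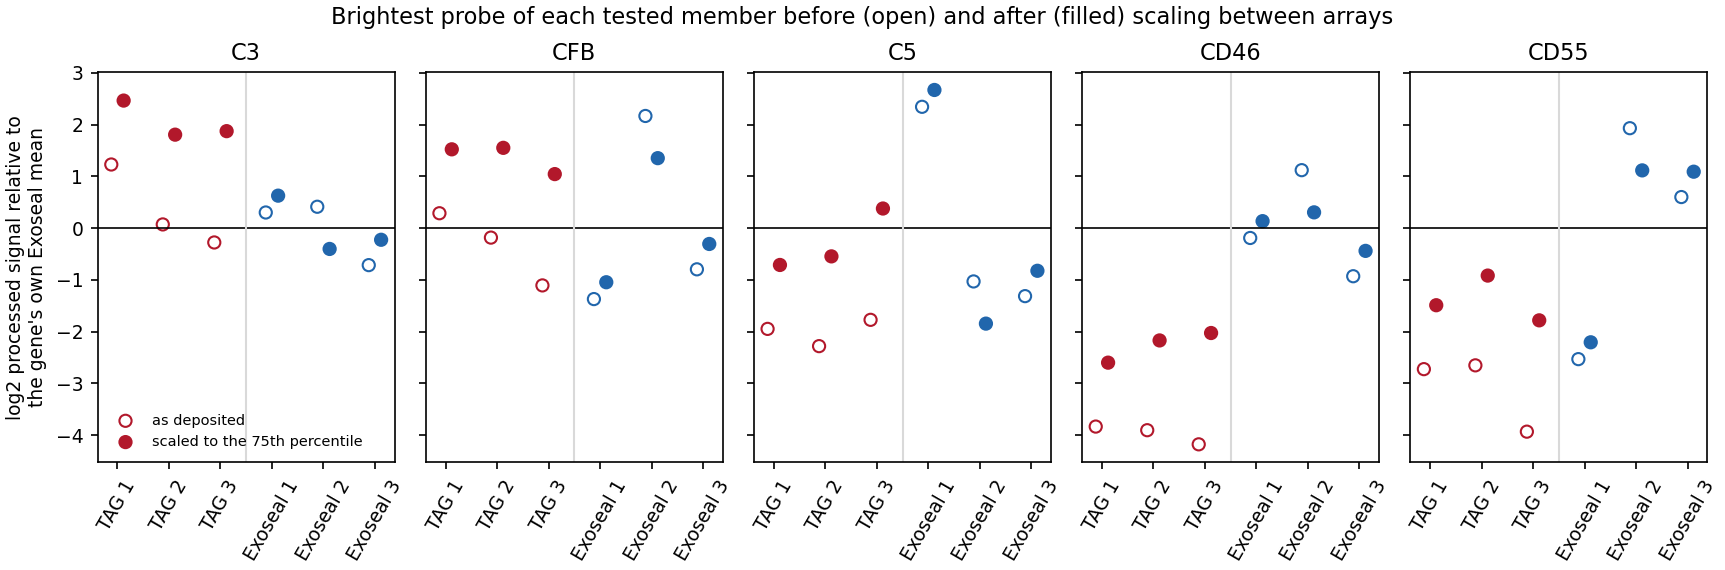
Brightest probe of each tested member on each array, as log2 processed signal relative to the mean of the gene's own 3 Exoseal arrays. Open circles are signals as deposited and filled circles are signals after scaling to the 75th percentile of the array, TAG in red and Exoseal in blue. For C3 the open circles of the groups overlap and the filled ones do not. For CD46 the groups are apart either way, with the TAG values at the scanner's floor.

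CFB, the protease subunit of the alternative convertase, was measured by 1 probe that was well above background on all 6 arrays. Its scaled log2 levels were 0.99, 1.02 and 0.51 on TAG replicates 1 to 3 and -1.58, 0.82 and -0.84 on Exoseal replicates 1 to 3. The TAG arrays lay close together, whereas Exoseal replicate 2 fell inside the TAG range and replicate 1 was the lowest of all. The difference of 1.37 ± 0.62 did not pass (limma adjusted p = 0.169). Within slide 1 the difference was 2.42 and passed, but this sets the TAG arrays against Exoseal replicate 1 alone, and slide as a block gives the same contrast. Without that replicate it was 0.85 and did not pass. As deposited, the processed signal was 27.5 to 72.4 intensity units in TAG and 22.9, 267 and 34.2 in Exoseal, so the unscaled log2 difference was -0.33, the opposite sign.

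C5, the substrate of the last convertase, was measured by 2 probes, and both were near background in TAG, with 0 of 3 arrays well above it. The brighter, A_72_P686307, had scaled log2 levels of -3.03, -2.86 and -1.94 in TAG and 0.36, -4.16 and -3.14 on Exoseal replicates 1 to 3. A single array, Exoseal replicate 1, carried a high level, at 87.5 intensity units against 8.42 and 6.92 on the other Exoseal arrays and 3.54 to 5.03 on the TAG arrays. The second probe, A_72_P178096, was well above background on Exoseal replicate 1 alone, at 46.3 intensity units against 1.41 to 3.20 elsewhere. The C5 probes thus ranked Exoseal replicate 1 highest together, with r = 0.93 over the 6 arrays. The difference of the brighter probe was -0.29 ± 1.00 (limma adjusted p = 0.872). It was 1.04 without Exoseal replicate 1 and did not pass, and -2.96 within slide 1, where the Exoseal side is that array alone. C5 entered the test only through its Exoseal arrays, so these differences are given as a description.

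CD46, the cofactor that helps inactivate deposited C3 fragments, was measured by 1 probe. It had scaled log2 levels of -3.77, -3.34 and -3.20 on TAG replicates 1 to 3 and -1.03, -0.86 and -1.61 on Exoseal replicates 1 to 3. The groups did not overlap, and Exoseal replicate 1 lay between the other Exoseal arrays. As deposited, the signal was 33.4, 82.8 and 20.0 intensity units in Exoseal and 2.66, 2.54 and 2.10 in TAG, where it equalled 1.00 times its scanner-reported error on all 3 arrays. The TAG values are therefore at the floor of the scanner's measurement, and the size of the fall cannot be given. The Exoseal mean against the dimmest signal of any probe well above background on each TAG array gives 1.14-fold. The fitted value corresponds to 4.81-fold. The 1.14-fold is not a strict limit, since probes not well above background could lie over that dimmest signal. TYROBP did, at -1.43 and -1.01 on TAG replicates 1 and 2, where the dimmest signals were -1.74 and -1.25.

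CD46 passed the filter only through its Exoseal arrays. Its probe was called lower, against 3.69% of all probes tested, and every TAG array was lower for it, against 16.2% of all probes tested. Both rest on TAG values under the detection limit. The same pattern, well above background on 3 Exoseal arrays and no TAG array, was shown by 9.58% of all probes, and the reverse pattern by 0.0876%. In the authors' deposited table CD46 stood at the lowest value of its column on 3 of 3 TAG arrays and on 0 of 3 Exoseal arrays. At least 38.4% of probes shared that lowest value on each TAG array, and 29.1% and 38.6% on Exoseal replicates 2 and 3, but only 0.0023% on Exoseal replicate 1. The fitted difference was negative in every alternative run, each with the TAG values at the floor. It was -2.40 within slide 1, against Exoseal replicate 1 alone, and -2.20 without that array. With normexp and quantile scaling it was -0.60 and did not pass. With Exoseal replicate 1 counted as TAG it was -1.60 and did not pass, and leaving out any other single array gave -2.49 to -2.10, which did not pass.

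CD55, the decay accelerator of convertases, was measured by 2 probes, 1 of them at background on most arrays. The brighter, A_72_P165046, had scaled log2 levels of -1.07, -0.50 and -1.36 in TAG and -1.79, 1.54 and 1.51 on Exoseal replicates 1 to 3. Exoseal replicates 2 and 3 were high, while Exoseal replicate 1 was lower than every TAG array. As deposited, the signals of that probe were 19.8, 437 and 174 intensity units in Exoseal and 7.49 to 18.2 in TAG. The difference of -1.40 ± 0.83 did not pass (limma adjusted p = 0.294).

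Whether CD55 differed depended on Exoseal replicate 1. Without it the difference was -2.50 and passed, with that array counted as TAG it was -2.70 and passed, and within slide 1 it was 0.81, the opposite sign, and did not pass. The second probe, A_72_P443243, was well above background on Exoseal replicate 2 alone, at 18.5 intensity units against 2.37 to 7.02 on the other arrays, and was not tested. No direction is read from it. Over the 6 arrays its r with the brighter probe was 0.0055, and the mean of both differed by 0.0026.

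CD59, the inhibitor of pore assembly, was measured by 1 probe that was well above background on no array. Its scaled log2 levels were -2.79, -2.52 and -2.54 in TAG and -2.45, -5.92 and -4.64 on Exoseal replicates 1 to 3. Its processed signal was 3.31 to 5.27 intensity units in TAG and 12.5, 2.50 and 2.45 in Exoseal. The signal was highest on Exoseal replicate 1 and stayed under the detection limit there, so no difference is given for CD59.

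**Figure D3:**
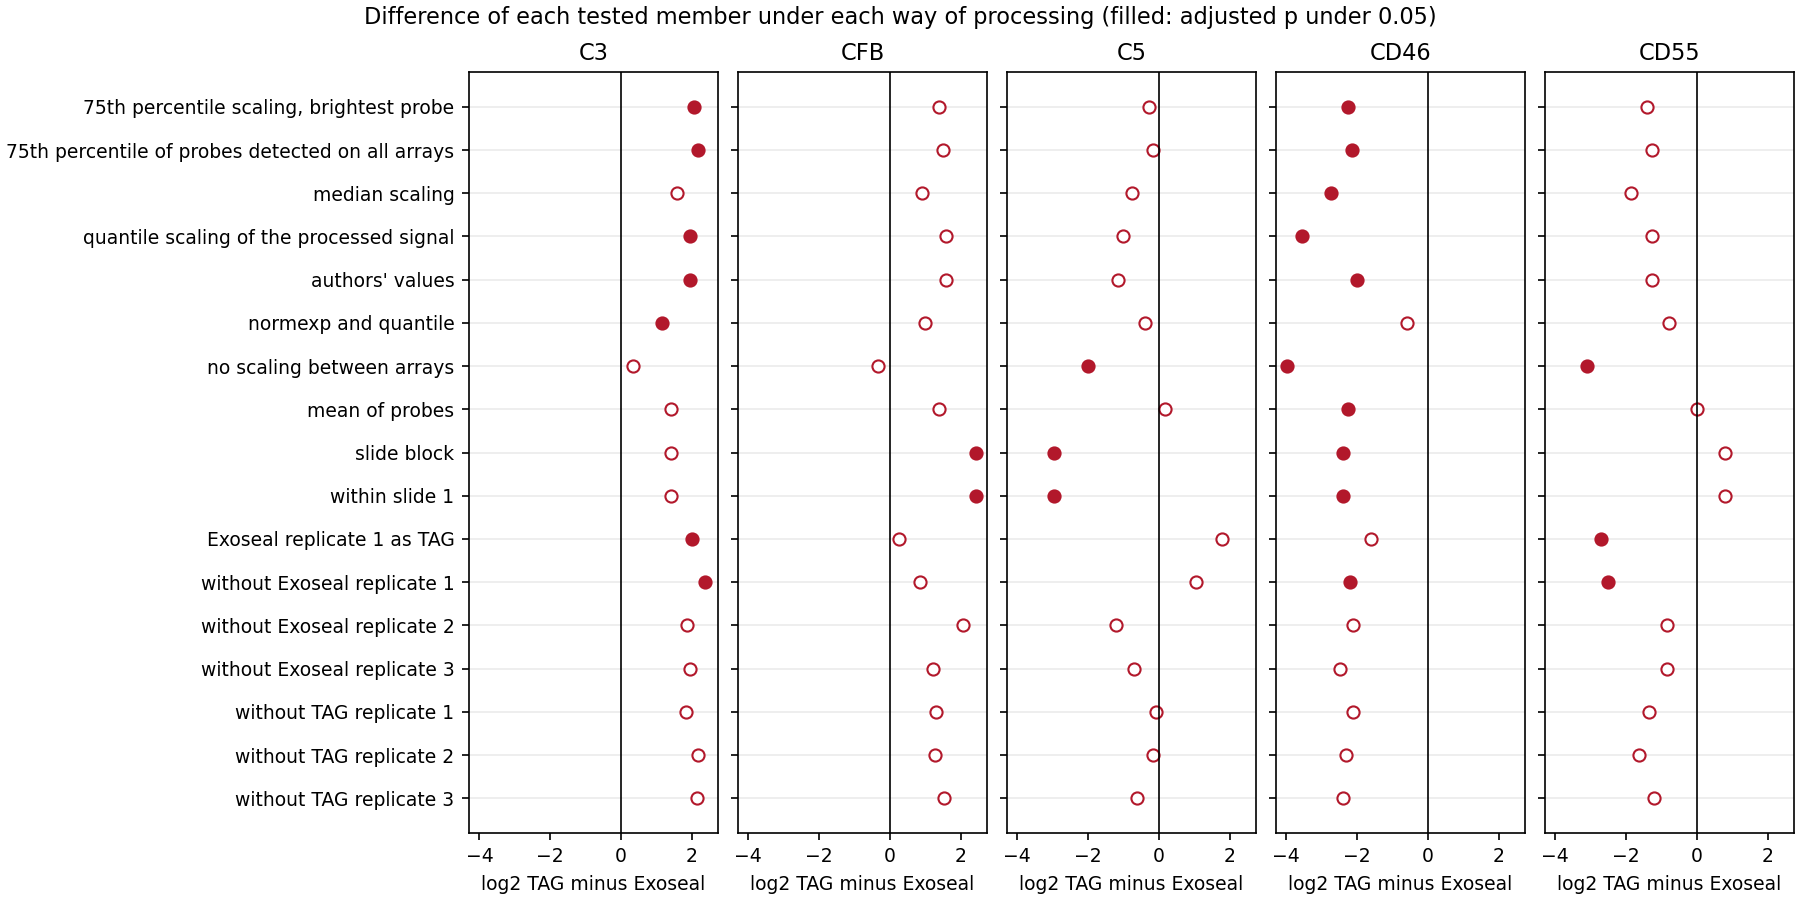
Log2 difference, TAG minus Exoseal, of the 5 tested members under each way of processing, 1 row per setting, with filled points for an adjusted p under 0.05 in limma. C3 stayed positive and CD46 negative in every row, while CFB turned sign without scaling, C5 turned when Exoseal replicate 1 was left out or moved or probes were averaged, and CD55 turned within slide 1 and, at 0.0026, as the mean of probes.

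The level of the components relative to the regulators was compared within each array, where any scaling by 1 factor per array cancels. The mean scaled log2 level of C3, C5 and CFB minus that of CD46, CD55 and CD59 was set relative to the mean of the Exoseal arrays. It was 1.94, 1.36 and 1.77 on TAG replicates 1 to 3 and 0.81, -0.25 and -0.57 on Exoseal replicates 1 to 3. With the values as measured, the TAG arrays lay over all Exoseal arrays, and Exoseal replicate 1 was the nearest to them. These scores hold CD46 values at the scanner's floor in TAG and CD59 values below background. With CD46 at the detection floor there, TAG replicate 2 would fall under Exoseal replicate 1, and the groups would overlap. The shift was 1.69, with SDs of 0.30 in TAG and 0.72 in Exoseal (n = 3 each), and no p is given for a score over chosen members. It was 0.88 within slide 1, against Exoseal replicate 1 alone, and 1.00 with normexp and quantile scaling. How the shift divides depends on the scaling: the components differed by 1.04 and the regulators by -0.65 after scaling, and by -0.66 and -2.36 without it. With CD46 set to the detection floor on the TAG arrays the shift was 1.00.

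CD59 was below background on every array, and C5 was high on a single array, so the score was also formed from C3 and CFB against CD46 and CD55. It was then 4.04, 3.22 and 3.37 on the TAG arrays and 0.83, -0.24 and -0.59 on the Exoseal arrays, a shift of 3.54. The log2 ratio of C3 to CD46 alone shifted by 4.32 as fitted. These sizes include CD46 values at the scanner's floor in TAG, and with CD46 at the detection floor there the shifts were 2.50 and 2.23. The ratio of C3 to CFB within an array, by contrast, shifted by 0.68 with SDs of 0.37 in TAG and 1.72 in Exoseal, so the groups were not apart in it.

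**Figure D4:**
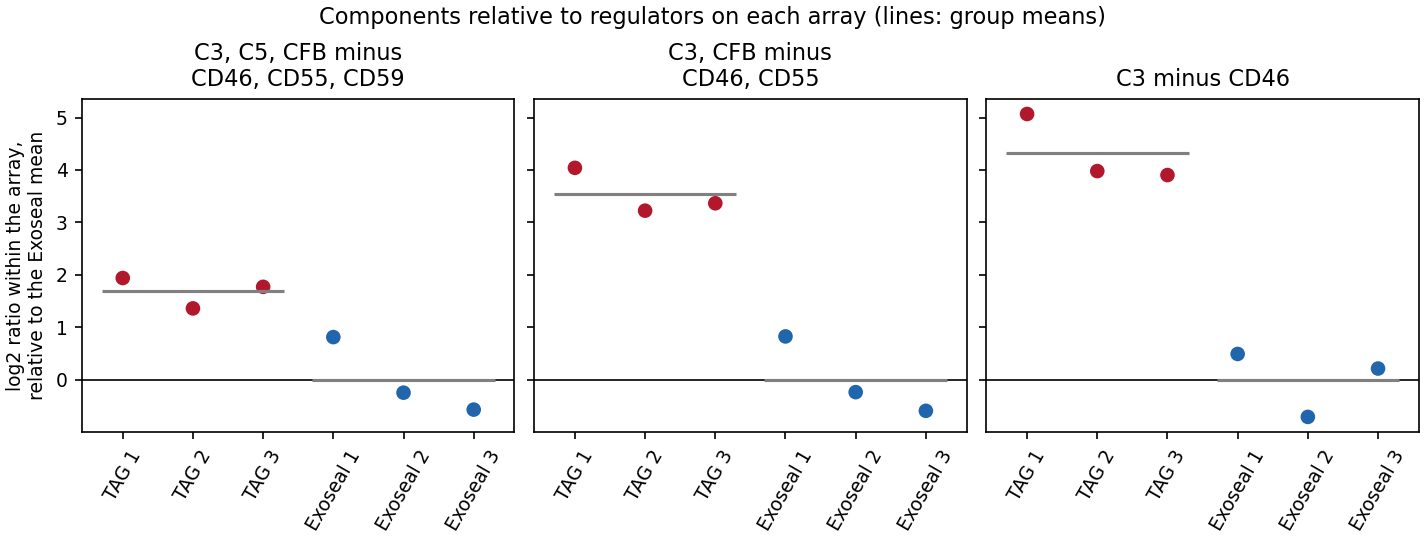
Log2 ratio of components to regulators within each array, relative to the mean of the 3 Exoseal arrays, for all 6 members, for 4 members and for C3 and CD46 alone. TAG is red, Exoseal is blue and grey lines are group means. CD46 is plotted as measured, under the detection limit on the TAG arrays. In each panel the 3 TAG arrays lie over the 3 Exoseal arrays, with Exoseal replicate 1 at 0.81, 0.83 and 0.49. In the first panel this order is lost with CD46 at the detection floor on the TAG arrays.

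The members did not follow a common pattern over the arrays. Pearson's r over the 6 arrays, a description of points that share libraries and scaling, was 0.48 between C3 and CFB, 0.16 between C3 and C5 and -0.70 between C5 and CFB. It was -0.93 between C3 and CD46 and 0.46 between CD46 and CD55, both with CD46 at the scanner's floor in TAG. With CD55 it was -0.74 for C3 and -0.76 for C5. Named genes with the most similar levels over the 6 arrays were then looked for among 1613 others.

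Nearest to C3 were PDX1 (r = 0.988), LMCD1 (0.983) and GPD1 (0.980), and 106 named genes had an r over 0.9 with it. Nearest to CD46 were CCR1 (0.994), a chemokine receptor, TICAM2 (0.990) and ACP5 (0.990), the acid phosphatase of osteoclasts and macrophages. Nearest to C5 were CACNG1 (0.9998), CLDN18 (0.998) and CTCFL (0.991), and 94 named genes had an r over 0.9 with C5. CFB was nearest to UBB (0.977), ANGPTL1 (0.976) and VDAC3 (0.970), and CD55 to ITIH4 (0.993), CAPN10 (0.990) and DNPEP (0.987). With 6 arrays, high values of r are common. Those for C5 rest largely on 1 high array, Exoseal replicate 1, and those for CD46 include TAG values at the scanner's floor.

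The rest of the complement system was read from a list of 42 other genes, of which 23 had a named probe and 15 were tested. In that list 0 genes were called higher in limma (6 at an unadjusted p under 0.05) and 1 was called lower, against 6.59% and 3.67% of all features. Which genes were called changed with the processing: SERPING1 alone was called, as higher, with normexp and quantile scaling, and FCN2 alone, as higher, within slide 1, with slide as a block and as the mean of probes. Of the 15 differences 12 were positive, with a median of 0.82 against 0.03 for all features tested. C7 and C9 were among the positive ones, with 0 TAG arrays well above background. Within slide 1 that median was 0.31, with median scaling it was 0.36, and without scaling it was -0.89. Exoseal replicate 1 decided many of the calls, since without it 6 of the 15 were called higher and 1 lower, against 20.3% and 13.1% of all features. C7 was among those 6, with 0 TAG arrays well above background. Without Exoseal replicate 1 closure product and slide cannot be told apart.

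**Figure D5:**
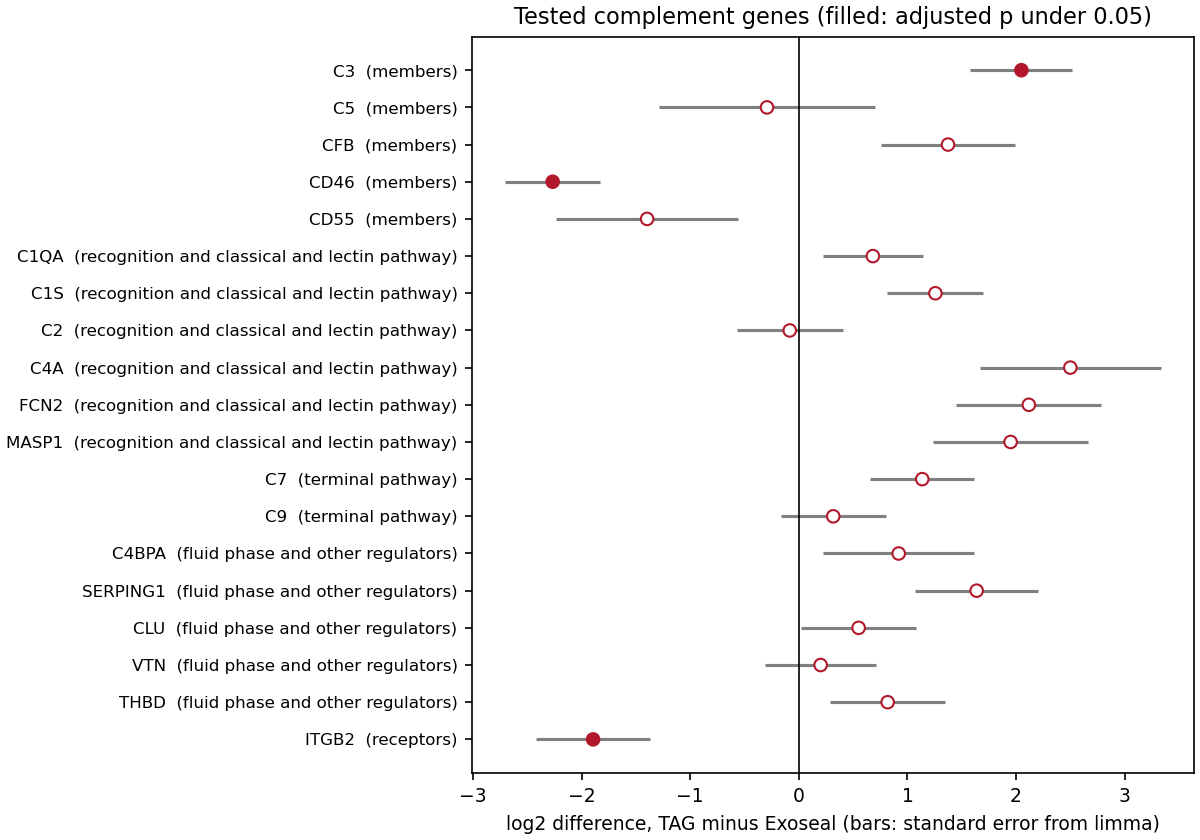
Log2 difference, TAG minus Exoseal, of the 5 tested members and 14 other complement genes, with standard errors from limma (n = 3 arrays per group) and filled points for an adjusted p under 0.05. Filled points mark C3 (2.05), CD46 (-2.27) and ITGB2 (-1.89), and 12 of the 14 points of other complement genes lie right of 0.

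In the recognition, classical and lectin pathway group 0 of 6 tested genes passed in limma (4 at an unadjusted p under 0.05), and 5 of the 6 differences were positive. C4A, the component cleaved to form the classical convertase, which its probes may not tell from the near-identical C4B, had 2.50 ± 0.83 (adjusted p = 0.0815 in limma). Its scaled log2 levels were -0.29, 0.10 and 0.33 in TAG and -0.22, -3.68 and -3.45 on Exoseal replicates 1 to 3. Exoseal replicate 1 thus stood among the TAG arrays for C4A, and the difference was 0.27 within slide 1 and 3.62 without that array, where it passed. MASP1, a protease of the lectin pathway, showed the same split, with -0.49, -0.35 and -0.36 in TAG and -0.54, -3.21 and -3.30 in Exoseal. Its difference of 1.95 was 2.86 without Exoseal replicate 1, where it passed. The MASP1 difference was 0.14 within slide 1 and 0.75 as the mean of its 2 probes. FCN2, a ficolin that starts the lectin pathway, had 2.12 ± 0.67 (adjusted p = 0.0700 in limma), and there Exoseal replicate 1 was the lowest array at -2.47, against 0.47 to 1.33 in TAG. Without that array FCN2 had 1.53 and passed. C1S, the classical pathway protease, had 1.26 ± 0.44, and 1.51 without Exoseal replicate 1, where it passed.

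Among terminal pathway genes 0 of 2 tested passed in limma (1 at an unadjusted p under 0.05), and 4 of the 6 matched genes were too dim to be tested. C7 had 1.14 ± 0.48 and C9 had 0.32 ± 0.49, both pore components, and both were above background on 0 of 3 TAG arrays. In the group of soluble and other regulators 0 of 6 passed in limma (1 at an unadjusted p under 0.05). SERPING1, the inhibitor of the C1 proteases, had 1.64 ± 0.56 (adjusted p = 0.0883 in limma), from 1.21 to 2.02 in TAG and from -1.20 to 0.60 in Exoseal, with no overlap. Without Exoseal replicate 1 SERPING1 had 1.98 and C7 had 1.43, and both passed. C7 entered the test only through its Exoseal arrays, so its call is given as a description. C4BPA, a cofactor in C4 breakdown, had 0.92 ± 0.70, and TAG replicate 2 stood apart from all other arrays at 7.62 against 4.53 to 5.40.

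The gene called lower was ITGB2, a beta chain shared by leukocyte integrins, among them receptors for cleaved C3. Its scaled log2 levels were -1.27, -0.53 and -1.29 in TAG and 0.77, 1.70 and 0.12 in Exoseal. The groups did not overlap, and the difference was -1.89 ± 0.52 (adjusted p = 0.0497 in limma). It was the 1 receptor gene with a named probe, and it was well above background on 2 of 3 TAG arrays. The call held in 4 of 18 alternatives, with adjusted p from 0.000225 to 0.189 in limma. It was lost with median scaling, within slide 1 (-1.81) and on leaving out any single array other than Exoseal replicate 1, and without that array it was -1.94 and passed.

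Markers of cell types that make or carry complement proteins were also read, and their part in these results was not tested. Of 6 tested macrophage and monocyte markers 2 were called lower, AIF1 (-1.80) and LYZ (-3.64). The others did not pass, with CD14 at 0.23, CD163 at 0.10, TYROBP at -0.19 and FCER1G at -0.43, and the median of the list was -0.31. The mean scaled log2 level of the list ran from 0.58 to 0.80 in TAG and from 1.29 to 1.93 in Exoseal. Of 2 endothelial markers CDH5 fell by 2.47 by its brightest probe, and PECAM1 had -1.57 by its brightest probe and did not pass. As the mean of their probes CDH5 had -1.07 and PECAM1 had 0.74, the opposite sign. By brightest probes the list ran from 0.66 to 2.11 in TAG and from 2.41 to 4.31 in Exoseal. Of 4 smooth muscle markers 2 rose, ACTA2 by 2.22 and DES by 1.52, while CNN1 (0.73) and MYLK (-1.37) did not pass, and the list ran from 6.13 to 6.51 in TAG and from 5.36 to 5.61 in Exoseal. The single fibroblast marker with a named probe, DCN, had 0.91 and did not pass.

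Among markers of other tissues, APOA1, an apolipoprotein of the liver and gut, was 1 of 4 liver markers that rose, by 1.81. The list ran from -1.35 to -0.74 in TAG and from -2.20 to -0.82 in Exoseal, and ALB (0.33), TTR (-0.37) and SERPINA1 (-0.25) did not pass, the last 2 of which were well above background on 0 of 3 TAG arrays. Of 6 skeletal muscle markers ACTA1 rose by 2.48 by its brightest probe, though the mean of its 16 probes differed by 0.30, and the list ran from 0.38 to 1.64 in TAG and from 0.46 to 1.29 in Exoseal. Of 3 tested fat markers, 2 neutrophil markers and 2 T and NK cell markers 0 passed in limma (0, 1 and 2 at an unadjusted p under 0.05), and CD4 was well above background on 0 arrays. No marker of red cells had a named probe.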

How the data were processed

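Total RNA of each artery had been amplified, labelled with Cy3 and hybridised to a 1-colour Agilent pig array, per the labels' protocols. Agilent Feature Extraction 11.0.1.1 was used, per the submitters' processing notes. Intensity values of each spot were deposited as scanner output, and per the file headers the processed signal is background-subtracted and detrended within the array, with no scaling between arrays. The authors' deposited table holds log2 values, not centred by gene and with a median of 3.40 in each column, made by a normalisation step that no source used here describes.

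Control and outlier spots were left out (1417 control spots of 45220, and 223 of 43603 probes lost as outliers), and spots of a probe were averaged. Signals were taken to log2 and each array's 75th percentile was subtracted. Probes were named by unversioned RefSeq accession through a table of the pig assembly Sscrofa11.1 (5435 of 43380 probes). No genome build is named for the array, and coordinates are left out. The brightest probe stood for a gene. Features well above background on at least 3 of 6 arrays went into limma 3.58.1 under R 4.3.3 (two-sided, lmFit and eBayes, Benjamini-Hochberg over all 20857 features, threshold 0.05), and all 22720 probes were fitted in the same way. The code was tested on simulated data. The scanner files hold a median spot signal, which took the place of the mean signal in normexp (offset 50). Slides were defined by the scan times in the file headers, and no slide identifier was read. Alternatives changed the scaling, background correction, filter, probe rule, slide or replicate block, and left out each array in turn.

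The members and gene lists were chosen with earlier results of these data known. Named were all members, called genes of the wider list with the 2 of each group with the smallest p, further genes of the list beside them (MASP1 and C1S, chosen after their values were seen), the 3 named genes nearest to each member by r, and called markers, the other tested macrophage, endothelial, smooth muscle and liver markers, DCN and CD4. A gene of the wider list that enters its counts is not reported here by name. Precision is limited by there being 3 arrays a group.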

Additional observations from a re-analysis of the deposited data

How the results depend on the processing

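The fitted difference kept its sign for C3 and CD46 in each alternative run, with CD46 at the floor in TAG. Within slide 1 and with slide as a block the contrast is the same, TAG against Exoseal replicate 1 alone. C3 had 1.59 with median scaling, 0.34 with no scaling, 2.05 with no filter, 1.42 with slide as a block and within slide 1, and 1.40 as the mean of probes, and did not pass in any of these (adjusted p from 0.000972 to 0.703 over its 19 alternatives in limma). CD46 did not pass with normexp and quantile scaling (-0.60), with no filter (-2.27) or with Exoseal replicate 1 as TAG (-1.60). The numbers in the titles were not taken as pairs in the main fit. Same-numbered arrays had correlations of deviations of -0.20, 0.072 and -0.076, and 1 of 3 TAG arrays correlated best with its own number. These values cannot exclude a pairing, since Exoseal replicate 1 was scanned apart from the other Exoseal arrays. With the replicate number as a block C3 had 2.05 and CD46 -2.27, and neither passed. CFB had 2.42 with slide as a block and within slide 1 and passed, and with no scaling CFB (-0.33) turned sign, as did C3 probes A_72_P742730 (-0.26), A_72_P737664 (-0.15), A_72_P443993 (-0.63) and A_72_P165601 (-0.83). C5 entered the test only through its Exoseal arrays, so its calls are a description. C5 passed with no scaling (-2.0) and with slide as a block (-2.96, the same contrast as within slide 1). It turned sign with Exoseal replicate 1 as TAG (1.78), without that array (1.04) and as the mean of probes (0.17). CD55 passed with no scaling (-3.10) and with Exoseal replicate 1 as TAG (-2.70), and turned sign with slide as a block and within slide 1 (0.81) and as the mean of probes (0.0026). With no scaling 10286 of the 20857 features tested were called lower, so a pass of C5 or CD55 there is not particular to them. Leaving out 1 array gave 1.84 to 2.36 for C3, 0.85 to 2.05 for CFB, -1.22 to 1.04 for C5, -2.49 to -2.10 for CD46, -2.50 to -0.84 for CD55 and 1.41 to 2.10 for components minus regulators. Components minus regulators, 1.69, had 1.00 with normexp and quantile scaling, 0.88 with slide as a block and within slide 1, 3.54 without C5 and CD59, and 1.00 with CD46 at the detection floor on TAG arrays.

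The count of 2139 features called (2443 at probe level) was 1105 (1049) with median scaling, 1163 (1607) with normexp and quantile scaling, 10533 (10943) with no scaling, 3529 (3788) with Exoseal replicate 1 as TAG, and 0 (0) in limma with no filter (13159 and 14128 at an unadjusted p under 0.05) and with the replicate block (5699 and 6381). Of 1374 higher and 765 lower calls the split became 508 and 597 with median scaling, 688 and 475 with normexp and quantile scaling, 1361 and 1413 with quantile scaling of the processed signal, and 247 and 10286 with no scaling. Leaving out 1 array gave 0 to 6957 calls (0 to 7715), with 4081 to 9017 features (4573 to 9990 probes) at an unadjusted p under 0.05. The count was over 0 only without Exoseal replicate 1, where closure product and slide cannot be told apart. The wider list had 0 genes called with median scaling, the percentile over commonly detected probes, no filter, the filter on all 6 arrays or the replicate block, 3 with no scaling, 2 with Exoseal replicate 1 as TAG, and 0 to 7 leaving out 1 array. Its median of 0.82 was 0.36 with median scaling, 0.49 with normexp and quantile scaling, -0.89 with no scaling and 0.31 with slide as a block and within slide 1. The median of all features moved from 0.03 to -0.43 with median scaling, -0.08 with quantile scaling, 0.17 with the percentile over commonly detected probes and -1.67 with no scaling. Quantile scaling and no scaling of the processed signal, and the scores without C5 and CD59 and with CD46 at the detection floor, were added after the data were examined. Signal over background limits CD46, CD59, C5 and the second CD55 probe, which were well above background on 0 of 3 TAG arrays.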
